A study of Drosophila melanogaster with 28 samples.

Results

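The difference between the sexes that is left in pupae without *doublesex* (*dsx*) was derived from 12 of the 28 arrays of the series, in which 3 direct comparisons of 4 arrays each link 4 genotypes at 48 hour APF (after puparium formation). The first compares Canton S (CS) females with CS males, the second CS females with *dsx* nulls that are chromosomally XX, and the third sets CS males against those that are XY, all whole body. No array compared XX with XY *dsx* nulls directly. Their ratio, called the residual sex difference here, was computed for each array element as the mean log2 ratio of CS female over CS male, minus that of CS female over XX *dsx* null, plus that of CS male over XY *dsx* null. A positive value is higher in XX nulls and a negative value is higher in XY nulls. Both nulls carried *dsx* D+R3 over *dsx* M+R15. The XX nulls also carried 1 copy of an X chromosome with ubiquitin-driven GFP, inherited from the father, by which they were recognized. The CS flies carried neither, so that *dsx* and genetic background cannot be told apart in either comparison, and karyotype and the GFP chromosome cannot be told apart in the residual. Values on at least 3 arrays of each of the 3 comparisons were required, which 4864 of 15744 elements met. The study drew up a list of male germline genes and one of female germline genes from other arrays, a time course that included germline-less *tud* progeny. They hold 671 and 350 of the elements. Of these 257 and 283 could be tested, with 4324 elements outside both lists. Sex differences were also taken from 4 arrays each of the wild type strain Berlin and of *tud* progeny, at the same hour. The *tud* progeny came from mothers with *tud*, *bw* and *sp* mutations and lacked a germline. Their females, unlike the males, carried a GFP X chromosome from the father, written with *y* and *w* mutations. Sex and this chromosome cannot be told apart in the *tud* ratios.

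*dsx* encodes transcription factors at the bottom of the somatic sex determination hierarchy, spliced into a female form, DSXF, and a male form, DSXM. X chromosome dose sets *Sex lethal*, *Sex lethal* sets *transformer*, and *transformer* sets the splicing of *dsx*. Flies that lack both forms develop as intersexes in either karyotype. X chromosome dosage compensation lies on a separate branch below *Sex lethal*, and germ cells read their own karyotype as well as signals from the surrounding soma. A sex difference that remains without *dsx* can therefore belong to dosage compensation, to the germline, or to other branches of the hierarchy. Which of these applies to an element was not tested.

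The 12 arrays held values for between 5586 and 12023 elements each. Replicates correlated at 0.76 to 0.85 across elements in the XX null comparison and at 0.83 to 0.90 in the XY null comparison, but at 0.26 to 0.75 among the CS arrays. The CS arrays fell apart by dye orientation. Over the 112 tested female-biased elements of the study's DSX set, which the study chose partly on these CS arrays, the median ratio was 0.66 and 0.82 on CS replicates 1 and 2, and 0.07 and 0.13 on replicates 3 and 4, on which the dyes were exchanged. For the male germline list the 4 medians lay between -0.84 and -0.70. Because the CS arrays enter every residual value, values from replicates 1 and 2 and from replicates 3 and 4 are given beside the list results. The element for *dsx* itself could not be named in the deposited table and was not checked.

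**Figure D1:**
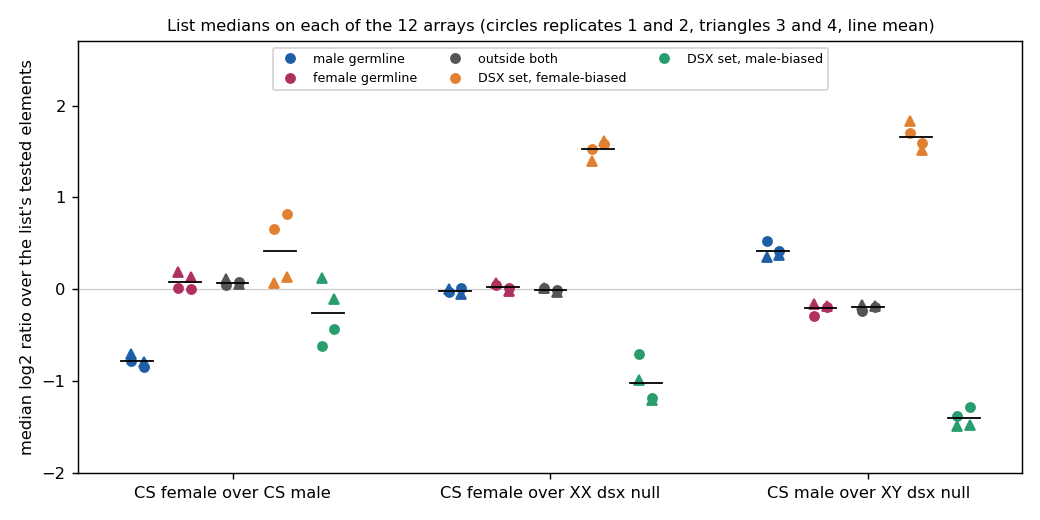
Median log2 ratio (vertical axis) over the tested elements of 5 lists, on each of the 12 arrays, grouped by comparison. Points are single arrays, circles for replicates 1 and 2 and triangles for replicates 3 and 4, and the line is the mean. Female-biased elements of the DSX set were at 0.66 and 0.82 on CS replicates 1 and 2 and at 0.07 and 0.13 on the other CS arrays, while the male germline list lay between -0.84 and -0.70 on every CS array.

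The karyotype of the nulls was examined with *roX1* and *roX2*, noncoding RNAs of the male dosage compensation complex. On the CS arrays *roX1* was at -5.20, -4.27, -3.96 and -5.32, so that it was far higher in males on every array. On the XY null arrays it was at -0.05, -0.12, 0.11 and 0.29, so that CS males and XY nulls lay within 0.29 of each other. *roX2* was between -3.97 and -3.47 on the CS arrays and between -1.03 and -0.34 on the XY null arrays, below 0 on all 4, and it had no value on any XX null array. An element was left empty where neither genotype gave enough signal, or where its spot was flagged or discarded on inspection. These were not told apart here. *roX1* had values on XX null replicates 3 and 4 only, at -0.23 and -4.41.

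Replicate 4 of the XX nulls stood apart in this respect. The ratio of CS female over XX null on this array was -4.37 for *beta-Tubulin at 85D*, the tubulin of spermatogenesis, -3.73 for *Male-specific transcript 77F*, a sperm chromatin protein, and -3.26 for *Male-specific RNA 87F*, a sperm tail protein that was also at -1.96 on replicate 2. Of the 42 male germline elements with a CS ratio below -2 that had a value on this array, 12 were below -1. On the other 3 XX null arrays the same was true for 2 of 19, 3 of 21 and 1 of 32. Over all elements, 1.96%, 5.64%, 2.85% and 3.88% of the values on replicates 1 to 4 were below -1, most on replicate 2, so that replicate 4 stood apart for these genes and not for low ratios in general. Whether all pupae pooled for this array were XX, as labelled, was not tested, and the part of this array in the results was examined only by leaving it out. Without it the male germline list had a median residual of -0.40 with 102 elements called below 0, where -0.39 and 103 were found with it.

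Other genes of the hierarchy gave no residual call over all arrays. *Sex lethal*, the master switch of the female state, has 2 elements, of which 1 could be tested. It had a residual of -0.11 ± 0.30 (SE; limma *q* = 0.474). Its values were 0.09, -0.41, 0.96 and 0.61 on the CS arrays, between -0.42 and 0.05 on the XX null arrays, and between -0.90 and -0.47 on the XY null arrays. These CS values spread across 0, and the residual was -0.56 with replicates 1 and 2 only and 0.33 with replicates 3 and 4 only. The second element was at 0.78, 0.57, 1.69 and 1.60 on the CS arrays, higher in females on each. It had an XX null mean of -0.02 and only 2 XY null values, -0.35 and -0.62, and could not be tested. *female lethal d*, which acts in *Sex lethal* splicing, had a residual of 0.22 ± 0.27 (SE; limma *q* = 0.376), and CG3056, a relative of *Sex lethal*, had -0.18 ± 0.39 (SE; limma *q* = 0.46). The residual of CG3056 was -1.13 with replicates 1 and 2 only and 0.77 with replicates 3 and 4 only, both past the limma *q* threshold and in opposite directions. *transformer* had values on 2 XX and 1 XY null array and could not be tested. *Pof*, whose protein binds chromosome 4, was between -3.86 and -3.47 on the CS arrays and between 0.61 and 1.79 on the XY null arrays. It also lacked enough XX null values.

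Over all elements, 1127 of 4864 (23.2%) had a residual sex difference (limma, Storey *q* below 0.15), 331 (6.81%) higher in XX nulls and 796 (16.4%) higher in XY nulls. In CS 39.1% were called, 1193 elements (24.5%) higher in females and 711 (14.6%) in males. The calls in the residual lean to one side, and so does the median over all elements. The median over all tested elements was -0.14 for the residual and 0.08 for CS. When each array was centered on the tested elements outside both germline lists, the residual calls became 323 higher in XX nulls and 266 higher in XY nulls. That centering by itself brings the median of most tested elements near 0. When each array was centered on the median of all its elements, the residual calls were 307 and 363, around a median of -0.06. The medians of the main lists below are therefore also given relative to the median of all tested elements.

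The change of the sex difference, the residual minus the CS difference, equals CS male over XY null minus CS female over XX null. The CS female over male arrays drop out of its estimate, which rests on 8 arrays, but they still enter the filter and the common variance. The change tests directly whether the XX and XY null comparisons differed. Removal of *dsx*, genetic background and the GFP chromosome of the XX nulls cannot be told apart in it. Of 4864 elements 41% were called, of which 464 (9.54%) were above 0 and 1531 (31.5%) below 0, around a median of -0.18. Centered on elements outside both lists, the counts were 616 and 319. How far each null comparison contributed to these calls was not counted. In the XY null comparison 80.2% of the elements were called, 25.8% above and 54.3% below 0, around a median of -0.17. In the XX null comparison 40.6% were called, 20% above and 20.6% below 0.

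**Figure D2:**
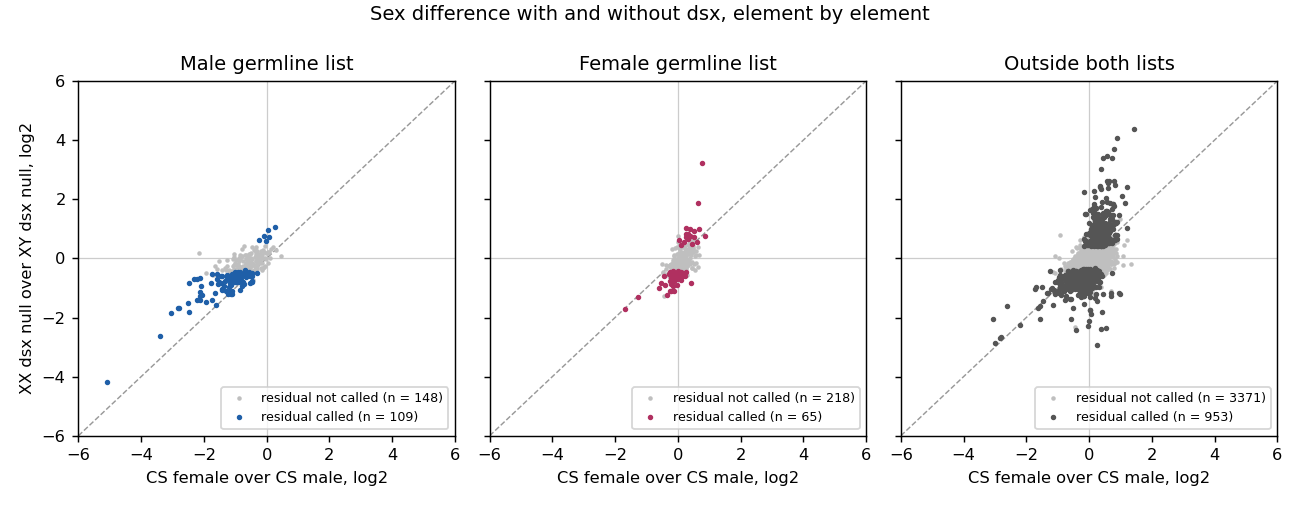
Residual sex difference (XX *dsx* null over XY *dsx* null, vertical axis, log2) against the CS sex difference (female over male, horizontal axis, log2) for each tested element, in the male germline list, the female germline list and outside both. Colored or dark points are elements with a residual called at limma *q* below 0.15 (109, 65 and 953), gray points are not called, and the dashed line marks equal values. Both axes share the CS arrays, so that scatter along the line is partly shared error.

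The male germline list kept part of its sex difference in *dsx* nulls. Of the 257 elements tested, 103 (40.1%) had a residual higher in XY nulls and 6 higher in XX nulls, where 16.4% and 6.81% of all elements did. In CS, 221 (86%) were called higher in males, which is the direction by which the list was selected on the other arrays. The median was -0.75 in CS and -0.39 in the residual, or -0.83 and -0.25 relative to all tested elements. Over the same elements, the 2 medians were -0.79 and -0.36 with replicates 1 and 2 only and -0.73 and -0.39 with replicates 3 and 4 only. Centered on the elements outside both lists, 45 elements were called higher in XY nulls.

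The change was above 0, toward a smaller male excess, in 144 of the 257 elements (56%) and below 0 in 2, against 9.54% and 31.5% of all elements. Its median was 0.39, or 0.57 above that of all tested elements, and it was called above 0 in 161 elements after centering on elements outside both lists. In the medians, nearly all of this came from the XY side. The median of CS male over XY null was 0.41, with 205 elements called higher in CS males and 17 lower. The median of CS female over XX null was -0.02, with 46 (17.9%) called above and 47 (18.3%) below 0. Over all elements, 20% and 20.6% were called in this comparison. On single arrays the male germline median lay between 0.35 and 0.53 in the XY null comparison and between -0.05 and 0.01 in the XX null comparison. In whole pupae, fewer germ cells and less RNA per cell cannot be told apart. In germline-less *tud* progeny, where 17.6% of 6057 elements were called (8.68% higher in females and 8.93% in males), the female over male median of 216 of these elements was -0.05.

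**Figure D3:**
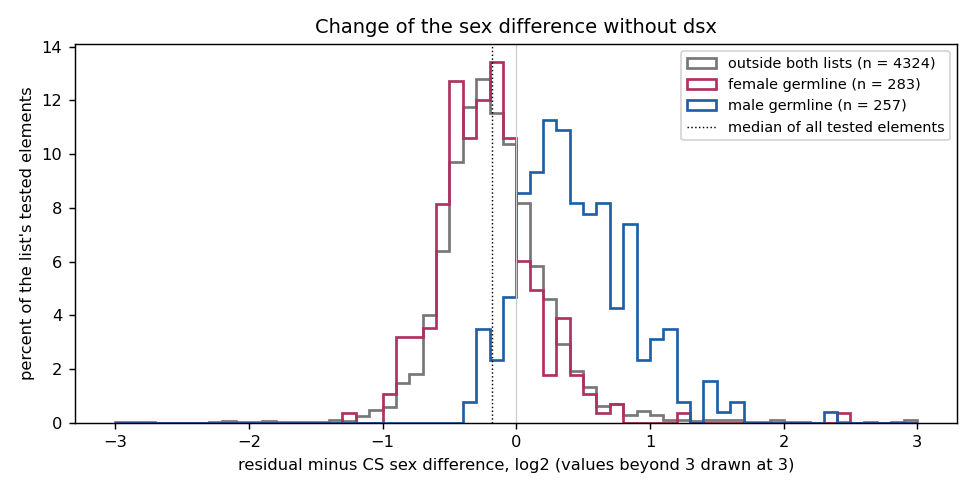
Distribution of the change of the sex difference without *dsx* (residual minus CS, horizontal axis, log2) as a percentage of the tested elements of each list (vertical axis), for the male germline list (257), the female germline list (283) and the elements outside both (4324). The dotted line is the median of all tested elements at -0.18. The male germline list is shifted to the right, with a median of 0.39.

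The strongest residuals of the male germline list were those of CG3982 and *gonadal*. CG3982 was at -4.82, -5.10, -5.52 and -4.92 on the CS arrays, at -0.20, -0.10 and 0.81 on 3 XX null arrays, and at 1.78, 0.49, 0.96 and 1.02 on the XY null arrays. Its residual was -4.20 ± 0.36 (SE; limma *q* = 3.46e-05), 18.3-fold higher in XY nulls. CS males exceeded CS females 34-fold. The XX null ratios lay on both sides of 0, and XX null replicate 1 gave no value. How far signal near background set these ratios, and with them the size of the residual, was not tested. *gonadal* had a residual of -2.62 ± 0.40 (SE; limma *q* = 0.00245), with CS values between -3.94 and -2.25. The next were CG18170, CG3875, *arrest*, which encodes an RNA-binding repressor of translation in germ cells, and CG30038, with residuals between -1.85 and -1.68. For all 6 elements the change was called above 0, between 0.65 and 1.21, with limma *q* of at most 0.0747.

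The strict sperm genes could mostly not be carried to the residual. All 16 elements of the list of sperm tail and chromatin genes had CS and XY null values, but only 3 had enough XX null values, and 7 had none. All 16 had a CS mean below 0 (median -3.90) and a CS male over XY null mean above 0 (median 1.32, range 0.15 to 2.38). For comparison, the latter mean was above 0 in 85.2% of tested male germline elements and 32.2% of tested elements outside both lists. Among male germline elements that could not be tested, it was above 0 in 99.6% of those with no XX null value. It was above 0 in 100% of those with values on 1 or 2 XX null arrays. The sperm genes thus did not differ in this from elements measured in the same way. *Male-specific RNA 98Ca*, a sperm tail protein gene, was at -6.55, -6.55, -6.13 and -6.08 on the CS arrays and at 2.47, 1.34, 1.38 and 1.40 on the XY null arrays. XY nulls thus had less of it than CS males on every array. *Male-specific RNA 84Dc* was at 3.35, 2.34, 1.75 and 2.06 on the XY null arrays, a mean of 2.38 or 5.19-fold. *beta-Tubulin at 85D* was at 2.19, 1.07, 0.77 and 1.48.

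The 3 sperm genes that could be tested had a residual higher in XY nulls. *Tektin C*, a flagellar protein, had CS values of -2.58, -2.86, -2.04 and -2.57, XX null values of 0.23, 0.19, 0.33 and -0.57, and XY null values of 1.64, 1.20, 0.29 and 1.07. Its residual was -1.51 ± 0.34 (SE; limma *q* = 0.014) and its change 1.00 ± 0.27 (SE; limma *q* = 0.0212). *Sperm-specific dynein intermediate chain 2* had a residual of -1.14 ± 0.25 (SE; limma *q* = 0.0129) and a change of 1.00 ± 0.20 (SE; limma *q* = 0.00642). *Sperm-specific dynein intermediate chain 1* had a residual of -0.78 ± 0.25 (SE; limma *q* = 0.0528), and its change of 0.18 missed the threshold. The 3 dynein genes are copies of one another, and cross-hybridization between them was not tested.

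The same held for the male germline list as a whole. In 283 of its 671 elements no XX null array gave a value. These had a median CS ratio of -2.93 and a median CS male over XY null ratio of 1.21, above 0 in 282 of 283. On single XY null arrays the median was 1.83, 1.00, 0.89 and 1.09, highest on replicate 1. Either neither CS females nor XX nulls gave enough signal for these elements on the XX null arrays, or their spots were discarded. The CS ratio of these elements may thus be set against a female level near background, and no XX null level can be given. A further 94 elements had values on 1 or 2 XX null arrays, with medians of -1.54 in CS and 0.80 in the XY null comparison, above 0 in all 94. The elements tested for the residual are therefore the less male-specific ones of the list. Outside both lists, 745 elements lacked any XX null value in the same way, with medians of -1.87 and 0.93. CS male over XY null was above 0 in 89.5% of these, against 32.2% of the tested elements outside both lists. Most elements without XX null values thus had this direction, in the male germline list or not. No element of the female germline list did.

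**Figure D4:**
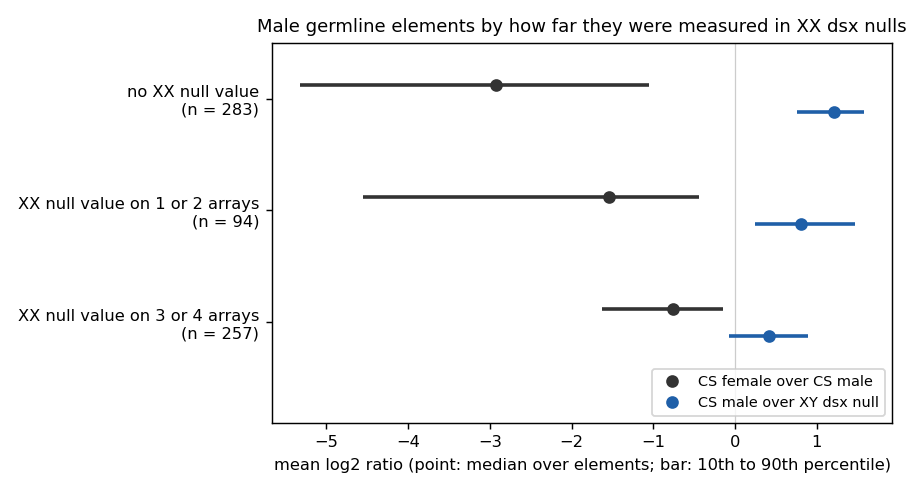
Mean log2 ratio (horizontal axis) of CS female over CS male and CS male over XY *dsx* null for male germline elements, by the number of XX *dsx* null arrays with a value (vertical axis; 257, 94 and 283 elements). Points are medians over elements and bars run from the 10th to the 90th percentile. Elements with no XX null value had the lowest CS ratio, at -2.93, and the highest ratio of CS male over XY null, at 1.21.

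Genes of RNA control in the germline and of the testis mitochondria were counted next. For comparison, a residual higher in XY nulls was called in 16.4% of all elements and 40.1% of the male germline list, and a change above 0 in 9.54% and 56%. Of 6 tested elements for germline RNA control, 3 had a residual higher in XY nulls and 4 a change above 0. *orb2*, a regulator of translation through the poly(A) tail, had a residual of -1.27 ± 0.25 (SE; limma *q* = 0.00828) and a change of 0.84. That change came from the XX side, with CS female over XX null at -0.90 and CS male over XY null at -0.05. For *Bicaudal C*, an RNA-binding protein, and *twin*, a deadenylase, the change was 1.44 and 1.08, from CS ratios of -1.93 and -1.59. The XX and XY null ratios were -0.81 and 0.63 for *Bicaudal C* and -0.19 and 0.89 for *twin*. Their residuals, at -0.49 and -0.52, missed the threshold. Of 7 elements for mitochondrial import and chaperones, 5 had a residual higher in XY nulls, among them *Roe1*, a mitochondrial chaperone cofactor, at -0.97 ± 0.21 (SE; limma *q* = 0.0136), and *tomboy40*, a testis form of the outer membrane pore, at -0.83 ± 0.22 (SE; limma *q* = 0.0285). The change was called above 0 in 3 of the 7, including *tomboy40* at 0.93. For *Tim9b* and *Tim10*, of mitochondrial import, it was -0.27 and -0.19 and not called.

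On the XX side, 46 elements (17.9%) of the male germline list were called above and 47 (18.3%) below 0. These shares are near those of all elements, 20% and 20.6%. Among the 47 below 0 are CG8086 and CG14995, which the study set apart for opposite responses on these same null arrays. Their changes are therefore a description only. CG8086 was at -2.51, -1.83, -2.42 and -1.85 on the CS arrays, at -1.86, -2.19 and -1.86 on 3 XX null arrays, and at 0.97, -0.02 and 0.13 on 3 XY null arrays. Its change was 2.33 ± 0.28 (SE; limma *q* = 0.00117), a 5.03-fold difference, and its residual was 0.18 ± 0.33 (SE; limma *q* = 0.44). XX nulls were far above CS females on all 3 arrays, and no residual was detectable within this error. Both elements of CG14995 had XX null values below 0 and XY null values above 0 on all arrays, with changes of 1.44 and 1.41. Their residuals were -0.67 ± 0.28 (SE; limma *q* = 0.109) and -0.24 ± 0.30 (SE; limma *q* = 0.381), so that 1 was called and 1 was not. Over the list, 24 elements (9.34%) were called below 0 in the XX null and above 0 in the XY null comparison, against 1.15% of all elements. None was called the other way round, against 3.23% of all.

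The 6 male germline elements with a residual higher in XX nulls were between 0.60 and 1.05. The highest was *slit*, an axon guidance ligand, at 1.05 ± 0.43 (SE; limma *q* = 0.104), and its XY null values ran from -0.73 to 1.22. *upheld*, troponin T of muscle, had 0.62 ± 0.26 (SE; limma *q* = 0.102), from XY null values of 0.90, 1.05, 0.72 and 0.81. The CS means of all 6 lay between -0.24 and 0.28, so that these are not elements with a male excess in CS. The call of *slit* was lost under 11 alternatives and that of *upheld* under 13.

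**Figure D5:**
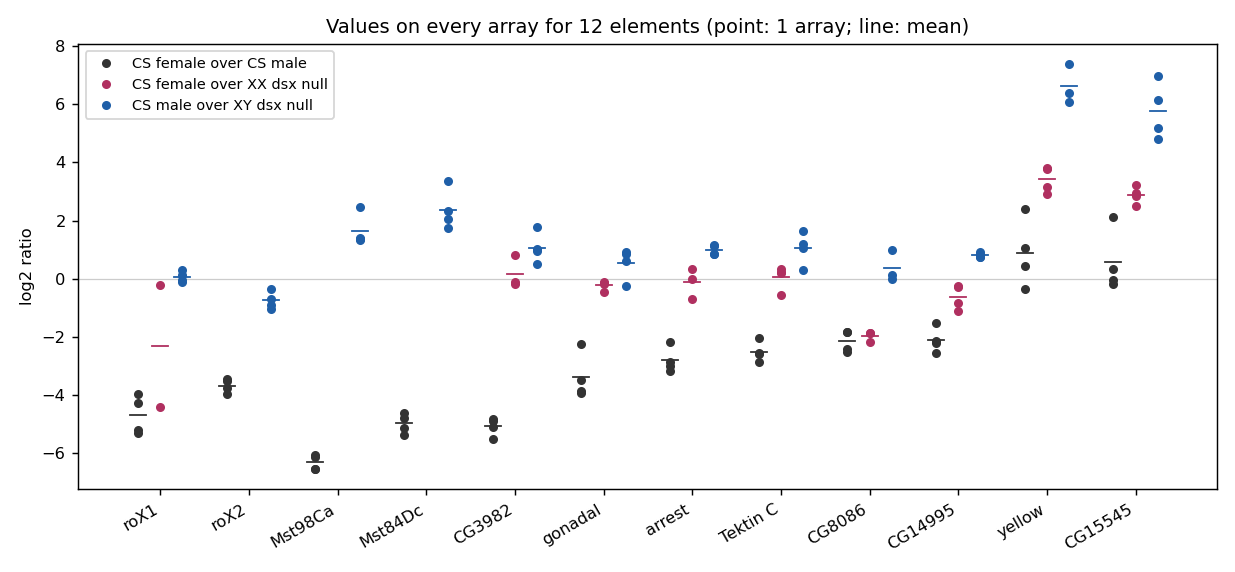
Log2 ratio (vertical axis) on every array for 12 elements (horizontal axis), in CS female over CS male, CS female over XX *dsx* null and CS male over XY *dsx* null. Points are single arrays and lines are means, and elements without a point for CS female over XX null had no value there. Male germline genes such as *Mst98Ca* and *arrest* were far below 0 in CS and above 0 in the XY null comparison, whereas *roX1* lay within 0.29 of 0 there.

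The female germline list was close to the other elements. Of 283 elements tested, 19 (6.71%) had a residual higher in XX nulls and 46 (16.3%) higher in XY nulls, where 6.81% and 16.4% of all elements did. The median was 0.10 in CS and -0.19 in the residual, or 0.02 and -0.05 relative to all tested elements. With replicates 1 and 2 only the medians were 0.01 and -0.27, and with replicates 3 and 4 only 0.16 and -0.08. The change was called below 0 in 104 elements (36.7%) and above 0 in 13 (4.59%), where 31.5% and 9.54% of all elements were. After centering on elements outside both lists, it was called below 0 in 25 and above 0 in 17 of the 283. Of all 4864 elements, 319 and 616 were then called below and above 0. Its median lay 0.06 below that of all elements.

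Single members had large values. CG13606 was at 1.06, 2.14, -0.38 and 0.28 on the CS arrays, at 0.67, 1.82 and 1.61 on 3 XX null arrays, and at 4.08, 3.75, 4.51 and 2.88 on the XY null arrays. Its residual was 3.21 ± 0.60 (SE; limma *q* = 0.00697), 9.27-fold higher in XX nulls. The XY null values did not overlap with the XX null values. *Glutathione S transferase D5*, a detoxification enzyme, had a residual of 1.89 ± 0.40 (SE; limma *q* = 0.0108), and *globin 1*, an oxygen-binding protein, had 1.01 ± 0.25 (SE; limma *q* = 0.0212). On the other side, *Muscle protein 20*, a calponin-like muscle protein, had a residual of -1.70 ± 0.32 (SE; limma *q* = 0.00724), and *argos*, a secreted inhibitor of the EGF receptor, had -1.32 ± 0.38 (SE; limma *q* = 0.04). Both differed little between the XX and XY null comparisons, with changes of -0.02 ± 0.27 and -0.06 ± 0.31 (SE), and had the same residual as CS ratio, -1.68 and -1.26, within these errors. *scratch*, a zinc finger protein of neurons, and CG15239 had residuals of -1.24 and -1.11, from CS ratios of -0.36 and -0.24. Both elements of CG10200 had residuals near -1.1 (-1.11 and -1.10).

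Outside both lists, 306 elements (7.08%) had a residual higher in XX nulls and 647 (15%) higher in XY nulls, which became 299 and 208 after centering on these same elements. The largest named residuals were higher in XX nulls. *yellow*, which is needed for black pigment, was at 1.06, 2.39, -0.37 and 0.43 on the CS arrays, at 3.82, 2.91, 3.17 and 3.76 on the XX null arrays, and at 6.08, 7.38 and 6.40 on 3 XY null arrays. Its residual was 4.08 ± 0.60 (SE; limma *q* = 0.00245), 16.9-fold, and its change 3.20 ± 0.50 (SE; limma *q* = 0.00275). Both nulls had far less *yellow* than CS, the XY nulls without overlap the least. In other XX genotypes of the study the GFP chromosome is written with *y* and *w* mutations. Which X chromosome the XY nulls carried is not given in the sources used here, so that the X chromosome and *dsx* cannot be told apart for this gene.

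CG15545 and CG15615 behaved alike, with CS means of 0.56 and 0.44, XX null means of 2.89 and 4.19, and XY null means of 5.79 and 7.16. Their residuals were 3.46 ± 0.59 (SE; limma *q* = 0.00404) and 3.40 ± 0.65 (SE; limma *q* = 0.00656). In the other wild type strain, Berlin, the female over male means of *yellow*, CG15545 and CG15615 were 4.28, 3.94 and 3.05, and in *tud* progeny 5.46, 4.65 and 4.00. CS thus had the lowest sex difference of the 3 pairs of males and females for all 3 genes. The *tud* females carried the GFP chromosome, and its part in the *tud* ratios was not tested. The ratios of the XY null arrays spread more widely than those of the XX null arrays. When every array was scaled to the same median absolute deviation, the residuals of *yellow* and CG15615 were 1.76 (limma *q* = 0.136) and 0.60 (limma *q* = 0.501). The change of *yellow* was 0.92 (limma *q* = 0.229) and that of CG15615 was 0.23 (limma *q* = 0.519). CG14624, CG15364 and CG8568 also had residuals of 4.39, 3.69 and 3.39, but from XX null values as far apart as -3.51 and 0.49 for CG14624 and -5.92 and -0.52 for CG15364.

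Among elements higher in XY nulls, CG14717 and CG31806 had CS ratios of -3.01 and -3.07 and residuals of -2.86 ± 0.32 (SE; limma *q* = 0.000323) and -2.04 ± 0.47 (SE; limma *q* = 0.0182). CG31806 was higher in both nulls than in CS, with means of -3.29 and -2.27. For CG14717 the change was 0.15 ± 0.27 (SE; limma *q* = 0.375). It was -3.41, -2.80, -2.42 and -3.41 on the CS arrays and between -0.46 and 0.49 on every null array with a value, and thus kept its male excess in both nulls. CG15589 and CG15911 had CS ratios of -0.57 and -0.15 and residuals of -2.05 and -1.53, because the XY nulls had more than CS males (-2.23 and -2.17) and the XX nulls only somewhat more than CS females (-0.75 and -0.79). Among named elements outside both lists they also had the largest negative changes, at -1.48 and -1.38, followed by CG30427 at -1.29 and CG1561 at -1.21. *vrille*, a repressor in the circadian clock, had a residual of -1.23 ± 0.40 (SE; limma *q* = 0.0568).

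The elements of the DSX set are a description only, since the study chose them for a sex difference on arrays that include the CS arrays. Of the 112 female-biased elements tested, 35 (31.2%) had a residual higher in XX nulls and 4 higher in XY nulls, where 6.81% and 16.4% of all elements did. Of the 46 male-biased elements, 24 (52.2%) had a residual higher in XY nulls and 0 higher in XX nulls. The median residual was 0.36 and -0.54, or 0.50 and -0.40 relative to all tested elements, and the CS median was 0.43 and -0.23, or 0.35 and -0.31. For the male-biased elements the residual median was -0.69 with replicates 1 and 2 only and -0.28 with replicates 3 and 4 only, and the CS median -0.44 and -0.011. The female-biased elements were lower in both nulls than in CS of the same karyotype, with medians of 1.45 in the XX and 1.68 in the XY null comparison. In the female-biased elements the change had a median of -0.04, with 27 elements called above and 24 below 0, and in the male-biased elements -0.36, with 5 above and 19 below, where 9.54% and 31.5% of all elements were above and below. With replicates 1 and 2 only the residual median of the female-biased elements was 0.55, below the CS median of 0.75. With replicates 3 and 4 only it was 0.31, above the CS median of 0.10. Their median change was -0.20 and 0.16 in the 2 orientations, where that of all tested elements was -0.20 and -0.15.

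Some genes had been set apart by the study for opposite responses in the 2 sexes. The study chose them on these same null arrays, so that a change away from 0 was built in. Their changes, the limma *q* of these and any lack of overlap are therefore a description only. The homeotic gene *abdominal A* had a change of -0.72 ± 0.22 (SE; limma *q* = 0.0322), from XX null values of 0.50, 0.43 and 0.15 and XY null values of -0.60, -0.32 and -0.15, which do not overlap. Its residual was -0.15 ± 0.26 (SE; limma *q* = 0.432), against a CS ratio of 0.57. CG10802 and CG9485 had changes of -0.56 and -0.59 and residuals of -0.34 ± 0.17 and -0.09 ± 0.25 (SE), and neither residual passed the test. *LpR1*, a lipophorin receptor, had a residual of -0.76 ± 0.28 (SE; limma *q* = 0.079), higher in XY nulls, where CS had 0.08 ± 0.35 (SD, n = 4). CG1441 had values on only 2 XY null arrays.

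Cuticle genes were higher in XX nulls in 6 of 13 tested elements and lower in 1, against 6.81% and 16.4% of all. The largest was *Cuticular protein 72Ec* at 2.26 ± 0.74 (SE; limma *q* = 0.0588), followed by *obstructor-E*, a chitin-binding protein, at 1.92 ± 0.52 (SE; limma *q* = 0.0343), and *Peritrophin A* at 1.47 ± 0.42 (SE; limma *q* = 0.0391). *Cuticular protein 72Ea* was at -0.84. The list median was 0.51, or 0.65 relative to all tested elements. It was 0.81 with replicates 1 and 2 only and 0.18 with replicates 3 and 4 only. In *tud* progeny the female over male median of these genes was 1.33. Of 13 muscle elements, 1 was higher in XX nulls (*upheld*) and 1 in XY nulls (*Muscle protein 20*). *Actin 87E* had a change of 1.19 from a CS ratio of -1.04, with a residual of 0.15 ± 0.24 (SE; limma *q* = 0.423). Of 12 elements of the ecdysone response, 2 were higher in XX nulls. *Sox box protein 14*, a target of the steroid hormone, was at 0.83 ± 0.25 (SE; limma *q* = 0.0451). The second was 1 of the 2 elements of *Ecdysone-inducible gene E1*, at 0.63, while the other was at -0.47 and not called. *miniature* and *dusky-like*, which shape wing and cuticle cells, had residuals of -0.61 and -1.14. The latter was called (limma *q* = 0.0943), but was 0.0024 with replicates 3 and 4 only.

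For genes outside both lists with a known chromosome, 215 elements lay on the X and 807 on autosomes. X elements had a median CS ratio of 0.21 and a median residual of 0.02, and autosomal elements 0.11 and -0.03. Relative to all tested elements, the residual medians were 0.16 and 0.11. In the residual 27 X elements (12.6%) were higher in XX nulls and 25 (11.6%) in XY nulls, and of autosomal elements 13.5% and 11.4%. The medians of X and autosomal elements in the residual thus differed by less than those of the 2 dye orientations for X elements, at 0.04 and -0.03.

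Elements were also grouped by their sex difference in Berlin, a strain on 4 other arrays, where 73.1% of 6821 elements were called (45.7% higher in females and 27.4% in males). The 207 tested male germline elements that were higher in Berlin males had a median of -0.86 in CS and -0.47 in the residual, with 100 (48.3%) called higher in XY nulls and 1 in XX nulls, and a median change of 0.41. Of all elements, 16.4% were higher in XY and 6.81% in XX nulls. Outside both lists, 554 elements higher in Berlin males had medians of -0.22 and -0.30, with a change of -0.05 and 170 (30.7%) called higher in XY nulls and 10 in XX nulls. Those higher in Berlin females, 1903 elements, had medians of 0.18 and -0.05, with 197 (10.4%) called higher in XX nulls and 182 (9.56%) in XY nulls. The medians of all tested elements differed between CS and the residual, so that the raw medians are not directly comparable. Relative to all tested elements, the CS medians of these 3 groups were -0.94, -0.30 and 0.10. Their residual medians were then -0.33, -0.17 and 0.09, and their median changes 0.59, 0.13 and -0.04. The Berlin female-biased elements thus had nearly the same relative median in both, and the 2 male-biased groups a smaller one in the residual.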

How the data were processed

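Two-color arrays of whole pupae at 48 hour APF were used. The authors scanned them with a GenePix scanner, kept elements with signal in at least 1 channel, and discarded flagged spots. They applied a global loess in LIMMA to every array. The deposited log2 ratios already account for the dye swap. How background was treated, and whether arrays were scaled to each other, is not given in the sources used here. The direction (CS female over male, CS over null) was settled on both dye orientations from the signs in the study's element lists. For the XX nulls 163 and 161 of 164 signs matched in the 2 orientations, and for the XY nulls 158 of 160 and 160 of 162. For CS, 410 of 428 signs matched on replicates 1 and 2, but only 287 of 423 on replicates 3 and 4, where the direction is less firmly settled.

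Contrasts of the 3 comparisons were fitted in limma 3.58.1 (R 4.3.3) with a common variance per element, with moderated t statistics and two-sided tests. Elements needed values on at least 3 arrays per comparison, and 32 control elements were left out. Storey *q* values, over all 4864 tested elements and from lambda of 0.05 to 0.95 in steps of 0.05, were called below 0.15. The precision is limited by 4 arrays per comparison, and array data give no read depth. Replicates are separate arrays of pooled pupae. Whether each had its own RNA extract is not given, so that the spread may be partly technical.

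Elements were named through the study's gene tables (2357 elements), and 2325 had a chromosome in the RefSeq table. Named elements were those of the sex hierarchy and sperm lists, the 6 largest residuals in each direction in each group (called, with the same sign without each array in turn), the 4 largest changes in each direction outside the lists, and 10 genes that the study singled out. The members and lists were chosen with earlier results of these data known. The fit was tested on simulated data. Alternatives were Benjamini-Hochberg adjustment, dye, block and weight terms, other minimum numbers of arrays, centering, scaling, and unmoderated and separate variances. Others were all 28 arrays, elements averaged by gene, elements of the study's somatic sex sets left out, and single arrays left out. Centering on elements outside both lists, and each dye orientation alone, were alternatives added after seeing the data.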

Additional observations from a re-analysis of the deposited data

Results flagged for a closer look

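Of 186 groups of 4 arrays examined, 12 had 1 array far from the other 3, and chance alone flags about 1 in 20 such groups. On XY null replicate 1 these were *Cytoplasmic dynein light chain 2*, at 1.83, and *Male-specific RNA 98Ca*, at 2.47, both above the other arrays, and on XY null replicate 3 it was CG15615, at 8.56. In the XX null comparison they were 1 element of *Ecdysone-inducible gene E1* on replicate 1 at -0.50, *Tektin C* on replicate 4 at -0.57, CG30038 on replicate 3 at 0.55 and *Muscle protein 20* on replicate 2 at 1.77. Among the CS arrays they were *Sperm-specific dynein intermediate chain 1* (-0.43) and *globin 1* (0.87) on replicate 2, CG30038 (-2.30) and *Muscle protein 20* (-0.96) on replicate 3, and CG6859 (0.43) on replicate 4.

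The XX and XY null comparisons differed by the test of the difference itself, in which *dsx* and genetic background cannot be told apart. This difference was above 0 in 144 male germline, 13 female germline and 307 other elements, and below 0 in 2, 104 and 1425. Centered on elements outside both lists, it was above 0 in 161, 17 and 438 and below 0 in 0, 25 and 294. The largest named differences outside both lists were those of *yellow* (3.20), CG15615 (2.96), CG14624 (2.94) and CG15364 (2.91) above 0, and of CG15589 (-1.48), CG15911 (-1.38), CG30427 (-1.29) and CG1561 (-1.21) below 0.

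Signal outside the tested elements appeared on XX null replicate 4, where *roX1* was at -4.41 and 12 strongly male-biased germline elements were below -1. Whether all pupae of this pool were XX was not tested.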

How the results depend on the processing

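The medians of the male germline list kept their sign under all alternatives run. Counts of calls moved more. With Benjamini-Hochberg adjustment the residual had 186 elements above and 384 below 0, CS had 710 above 0, the change had 290 above and 831 below 0, and the male germline residual and the female germline change had 60 and 59 below 0 (Berlin 2679 and *tud* 622 calls). Array weights gave residuals of 578 and 1374 and a change of 715 above 0. Separate variances gave residuals of 160 and 480 (male germline 68) and CS counts of 296 and 393. Values on at least 2 arrays gave a male germline CS median of -0.82. Values on all 4 arrays gave CS counts of 682 and 430, a change of 1007 below 0 (female germline 69) and a male germline CS median of -0.68. Centering on array medians gave 363 residuals (male germline 59) and 825 changes (female germline 63) below 0, with a female germline median change of -0.16. Centering on elements outside both lists gave 266 residuals (male germline 45), 319 changes (female germline 25) below 0, and 674 CS elements above 0. The male germline medians were then -0.27 (residual), -0.83 (CS) and 0.58 (change), and those of the female germline -0.075 and -0.056 (residual and change). Scaling gave 502 residuals and 935 changes below 0, and all 28 arrays gave residuals of 181 and 459. Replicates 1 and 2 only gave changes of 196 (male germline 92) and 600 (female germline 45), and the female germline CS median reversed to -0.016 among the elements then testable. Replicates 3 and 4 only gave residuals of 359 (male germline 54), CS counts of 760 and 450, changes of 872 (female germline 64) below 0 and a female germline residual median of -0.067. Apart from the centered values, the cause was not tested.

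Replicate numbers were not shown to pair the arrays. Deviations of same-numbered arrays correlated at -0.01 to 0.40, above 0.1 in 6 of 12 pairs. With the replicate number as a block the residual had 448 elements below 0 (male germline 63) and CS had 763 above 0.

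Leaving out single arrays gave residual counts of 165 to 492 above and 339 to 1198 below 0, CS counts of 633 to 1440 and 495 to 1034, and change counts of 334 to 542 and 952 to 1782. In the male germline list, 57 to 124 residuals were called below 0 and 124 to 157 changes above 0, and in the female germline list 60 to 117 changes below 0. The medians of residual, CS and change were -0.44 to -0.35, -0.83 to -0.73 and 0.37 to 0.43 in the male germline, and -0.24 to -0.14, 0.08 to 0.11 and -0.26 to -0.21 in the female germline. Berlin had 3289 to 5244 and *tud* 272 to 663 calls. Residual calls below 0 fell by more than 1.5 times without CS replicate 1 (424) or 2 (503), XX null replicate 1 (339) or 3 (493), or XY null replicate 3 (392) or 4 (422), and rose without CS replicate 3 (1198). Those of the male germline list were 65, 57 and 62 without CS replicate 1, XY null replicate 3 and XY null replicate 4.

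Of the 51 named values that were called, 1 of 1281 alternative values reversed in sign and 139 missed the threshold. The residuals named for their size had been chosen to keep their sign without each array in turn. They could therefore not reverse with single arrays left out, and these settings are among the 1281 values. The rarity of reversals is thus partly built in. Residuals that reversed were *Sex lethal* (0.13 scaled, 0.33 with replicates 3 and 4 only, -0.33 to 0.13 with single arrays left out), CG3056 (0.77 with replicates 3 and 4 only, -0.43 to 0.13 with single arrays left out), *Ecdysone-inducible gene E1* (0.14) and *miniature* (0.18) when scaled, CG9485 (0.027 centered on elements outside both lists, -0.22 to 0.15 with single arrays left out), *dusky-like* (0.0024) and *abdominal A* (0.26) with replicates 3 and 4 only, and CG8086 (-0.0091 with array weights, -0.13 to 0.37 with single arrays left out).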
